A study of Mus musculus with 36 samples.

Results

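Chp2, Mthfd1l, Rasl11a, Fndc5, Insm2 and Tspan4 are 6 genes outside the known clock list whose 24 h rhythm in the mouse bladder differed between corticosterone and vehicle, and they are described here among 49585 features in the deposited tables. They were chosen by that difference: a test of whether the 24 h cosine and sine terms of a gene differ between the treatments, run over all 36 libraries with limma, a linear model with moderated variances, and Benjamini-Hochberg adjustment at 0.05. All 6 passed the filter on low values, with 17867 features tested. The test called 19 of those features, 0.106% of them (780, or 4.37%, at an unadjusted p under 0.05), of which 11 belong to a list of 19 clock genes and 8 do not. The members' rhythm differences, peak times, amplitudes and values by time are therefore given as a description, with no test.

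The 24 h clock of mammalian cells is a feedback loop in which the transcription factors encoded by Arntl and Clock switch on the Per, Cry and Nr1d genes, whose products then hold that activity down. Output genes such as Dbp follow the loop, and each tissue has its own set of rhythmic genes. Corticosterone, the main glucocorticoid of mice, is released by the adrenal glands in a daily rhythm, acts through the glucocorticoid receptor and is a known timing signal for clocks in peripheral tissues.

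Total RNA of the whole bladder was sequenced from C57BL/6 mice that all had both adrenal glands removed. In the CORT group corticosterone was given at what the labels call the inactive timing, and in the vehicle group vehicle only. Each treatment had 18 libraries, with 3 libraries per label at 4, 8, 12, 16, 20 and 24 h. The labels define neither time zero nor the animals' sex and age. They leave unsaid whether replicates came from different animals, and a p-value therefore reflects only how these samples spread, which may be technical. Time of the replicate 3 libraries comes from their titles, and these libraries were registered later than the others. Although every sample is labelled as whole bladder, the extraction text speaks of blood RNA and of removing globin. Bladder markers were abundant: summed normalized values of 6 urothelial markers were 36732 to 68411 in CORT libraries and 34481 to 86413 in vehicle libraries. In bulk tissue, fewer cells of a type and less RNA per cell cannot be told apart.

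Mean total counts per library were 11016413 in CORT and 10682674 in vehicle, and libraries of a group correlated at 0.98 on average, the same as libraries of different groups. All 5 endothelial markers and 2 of 5 fibroblast markers were lower in CORT averaged over the day (limma, adjusted p under 0.05), where 2.82% of all features were. These calls rest on all 36 libraries, as described below for the day average. Of 36 columns in the authors' tables of selected genes, 8 carry a name that the full tables give to a different library. All 8 are replicate 2 libraries at 4, 8, 16 or 20 h, 4 of each treatment, and the names in the full tables are used here. Under the other names 4 libraries of each treatment change their time, and 2 of the 4 also change treatment: the CORT 16 and 20 h libraries become vehicle 4 and 8 h, and the vehicle 16 and 20 h libraries become CORT 4 and 8 h. Without these 8 libraries the rhythm difference test called 10 features, among them Chp2 and Insm2 (adjusted p 0.0473 each) and none of the other 4 members (adjusted p 0.183 to 0.584, limma). With the other naming it called 0 features, and the members' adjusted p lay between 0.688 and 1.00. Leaving out all libraries of a replicate number also ended most calls. Without replicate 1, Mthfd1l was the one member with an adjusted p under 0.05 (0.0249, limma). Without replicate 2 no member was called, with the smallest adjusted p 0.0899 for Insm2, and without replicate 3 none was, with the smallest 0.113 for Chp2. When 1 library was left out at a time, Chp2, Mthfd1l and Rasl11a were called in 36 of 36 fits, Fndc5 in 14, Insm2 in 12 and Tspan4 in 12. Other settings also ended calls of these last 3 genes and of no other member: no filter on low values (0.0521 for each, limma), the replicate block (0.0553 for Fndc5 and Insm2), an intensity trend (0.0790 for Fndc5), array weights (0.109 for Insm2), pseudocount 0.5 (0.0510 for Insm2) and each treatment's own scale (0.0521 for Fndc5 and 0.0788 for Tspan4).

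At the threshold, Tspan4, Insm2 and Fndc5 had the largest adjusted p of the members, 0.0391 each. The 2 called features that are neither members nor in the clock list are Wee1, a kinase that delays mitosis (0.0130), and Cx3cr1, the fractalkine receptor of myeloid cells (0.0432). The next features with no call were Lefty1 (0.0561), the clock gene Npas2 (0.0848), Syt15 (0.129) and Rnf144a (0.139).

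Promoter sequence was read for all 6 members from RefSeq on GRCm38.p6, the same assembly as mm10, as 250 bases before and 50 after each start, with 7 windows because Tspan4 has a pair of starts. A pair of stretches is shown, for the members whose values across the libraries were most like those of the clock gene Per2, one with and one without a match to a clock element. The first lies at chr7:141476130-141476379 and the second at chr10:3972825-3973074, both on the plus strand and each ending at the base before the start; capitals mark the E-box CACGTG, the site bound by the Arntl and Clock proteins.
Tspan4, second start: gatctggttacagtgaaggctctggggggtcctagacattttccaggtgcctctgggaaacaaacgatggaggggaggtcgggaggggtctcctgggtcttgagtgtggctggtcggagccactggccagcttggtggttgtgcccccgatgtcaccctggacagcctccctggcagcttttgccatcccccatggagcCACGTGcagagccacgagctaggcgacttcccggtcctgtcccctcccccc
Mthfd1l: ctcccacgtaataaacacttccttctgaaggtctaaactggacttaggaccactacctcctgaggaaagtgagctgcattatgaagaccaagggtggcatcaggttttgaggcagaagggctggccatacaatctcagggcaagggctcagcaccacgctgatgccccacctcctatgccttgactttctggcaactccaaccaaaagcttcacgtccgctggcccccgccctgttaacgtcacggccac

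The Tspan4 E-box begins 51 bases before the start, and 7.15% of the 32851 promoter windows in the table hold CACGTG. One other match was found among the members, the glucocorticoid half-site AGAACA on the minus strand of the Chp2 window, 42 bases after the start; 18.97% of all windows hold that half-site. No member window held the D-box TTATGTAA or TTACGTAA (1.06% of windows), the short REV-ERB and ROR element TAGGTCA (2.61%) or its longer form (0.116%), the cyclic AMP element TGACGTCA (1.79%) or the full glucocorticoid element (0.475%), searched on both strands. The longer REV-ERB and ROR form contains TAGGTCA, and AGAACA can lie within the full glucocorticoid element. A match is a description of these letters and not a bound site.

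Chp2 (chromosome 7, 122219496 to 122222824, plus strand) encodes a calcineurin B homologous protein, a calcium-binding cofactor of sodium-proton exchangers. It ran nearly opposite in the treatments. Chp2 at 4 h had normalized values of 94.3, 64.9 and 69.7 in CORT libraries, against 152, 136.5 and 157 in vehicle libraries. At 8 h Chp2 was at 96.2, 98.9 and 109.9 in CORT and at 123, 116 and 112 in vehicle. Every CORT library lay below every vehicle library at both times. At 12 h its values were 180.4, 102 and 142 in CORT and 103, 119.8 and 121 in vehicle. The 16 h libraries held 129.9, 138 and 114 in CORT and 75.9, 63.7 and 93.2 in vehicle. The groups overlapped at 12 h, and all CORT libraries were above all vehicle libraries at 16 h, the time of the lowest vehicle values. Values at 20 h were 129, 142 and 112 in CORT, against 114, 109 and 102.5 in vehicle. At 24 h the CORT libraries gave 111, 97.4 and 99.9 and the vehicle libraries 179, 186 and 199.5. The groups overlapped at 20 h, and at 24 h the vehicle libraries held the highest Chp2 values of that treatment, all above CORT. The fitted peak was at 15.7 h in CORT and 2.60 h in vehicle, a CORT minus vehicle difference of -10.9 h on the shorter way round the day (95% interval -13.1 to -8.74 h). Amplitude, from mean to peak on the log2(value + 1) scale, was 0.37 ± 0.08 in CORT and 0.48 ± 0.08 in vehicle (SE, n = 18 each), and the adjusted p by which Chp2 was chosen was 0.000555.

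Rasl11a (chromosome 5, 146845071 to 146847726, plus strand) encodes a small GTPase of the RAS family, linked in mouse cells to transcription of ribosomal RNA genes. Its curves were also nearly opposite. Rasl11a at 4 h had normalized values of 144, 82.6 and 73.2 in CORT libraries, against 118, 149 and 166 in vehicle libraries. At 8 h Rasl11a was at 123, 148 and 114 in CORT and at 105, 76 and 86.7 in vehicle. At 12 h its values were 154, 201 and 147 in CORT and 60.9, 96.3 and 93.8 in vehicle. All CORT libraries exceeded all vehicle libraries at 8 and 12 h, while at 4 h the groups overlapped through CORT replicate 1. The 16 h libraries held 99.1, 149 and 118 in CORT and 129.6, 108 and 88.9 in vehicle. Values at 20 h were 89.6, 115 and 93.1 in CORT, against 159.6, 115 and 119.6 in vehicle. At 24 h the CORT libraries gave 84.7, 144 and 119.6 and the vehicle libraries 155, 196 and 186. The groups overlapped at 16 and 20 h, and at 24 h every CORT library lay below every vehicle library. Rasl11a peaked at 11.9 h in CORT and 23.7 h in vehicle, a difference of -11.8 h (95% interval -14.8 to -8.87 h), so that an advance and a delay are about the same size. Its amplitude was 0.30 ± 0.11 in CORT and 0.53 ± 0.08 in vehicle (SE, n = 18 each), with an adjusted p of 0.00984 behind its choice.

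Mthfd1l (chromosome 10, 3973118 to 4167081, plus strand) encodes the mitochondrial C1-tetrahydrofolate synthase, which makes formate from folate-bound one-carbon units. Its locus also holds the pseudogene Gm16074 and the small RNA gene Gm25515 on the same strand. Mthfd1l at 4 h had normalized values of 171.5, 261 and 253 in CORT libraries, against 123, 121 and 111 in vehicle libraries. At 8 h Mthfd1l was at 180.1, 212 and 252 in CORT and at 191, 189 and 186 in vehicle. At 12 h its values were 203, 154 and 164 in CORT and 332, 217 and 235 in vehicle. CORT was above vehicle in all libraries at 4 h, overlapped it at 8 h and was below it in all libraries at 12 h. The 16 h libraries held 201, 116 and 184 in CORT and 258, 226.22 and 227 in vehicle. Values at 20 h were 167, 133 and 155 in CORT, against 217, 246 and 257 in vehicle. At 24 h the CORT libraries gave 263, 137 and 171 and the vehicle libraries 119.97, 131 and 150.1. The CORT libraries stayed below all vehicle libraries at 16 and 20 h, and at 24 h CORT replicate 1 stood well above both other CORT libraries and the groups overlapped. Peaks were fitted at 5.65 h in CORT and 14.8 h in vehicle, a CORT minus vehicle difference of -9.18 h (95% interval -11.9 to -6.48 h). The amplitude was 0.28 ± 0.10 in CORT and 0.57 ± 0.07 in vehicle (SE, n = 18 each), and the adjusted p was 0.00223.

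**Figure D1:**
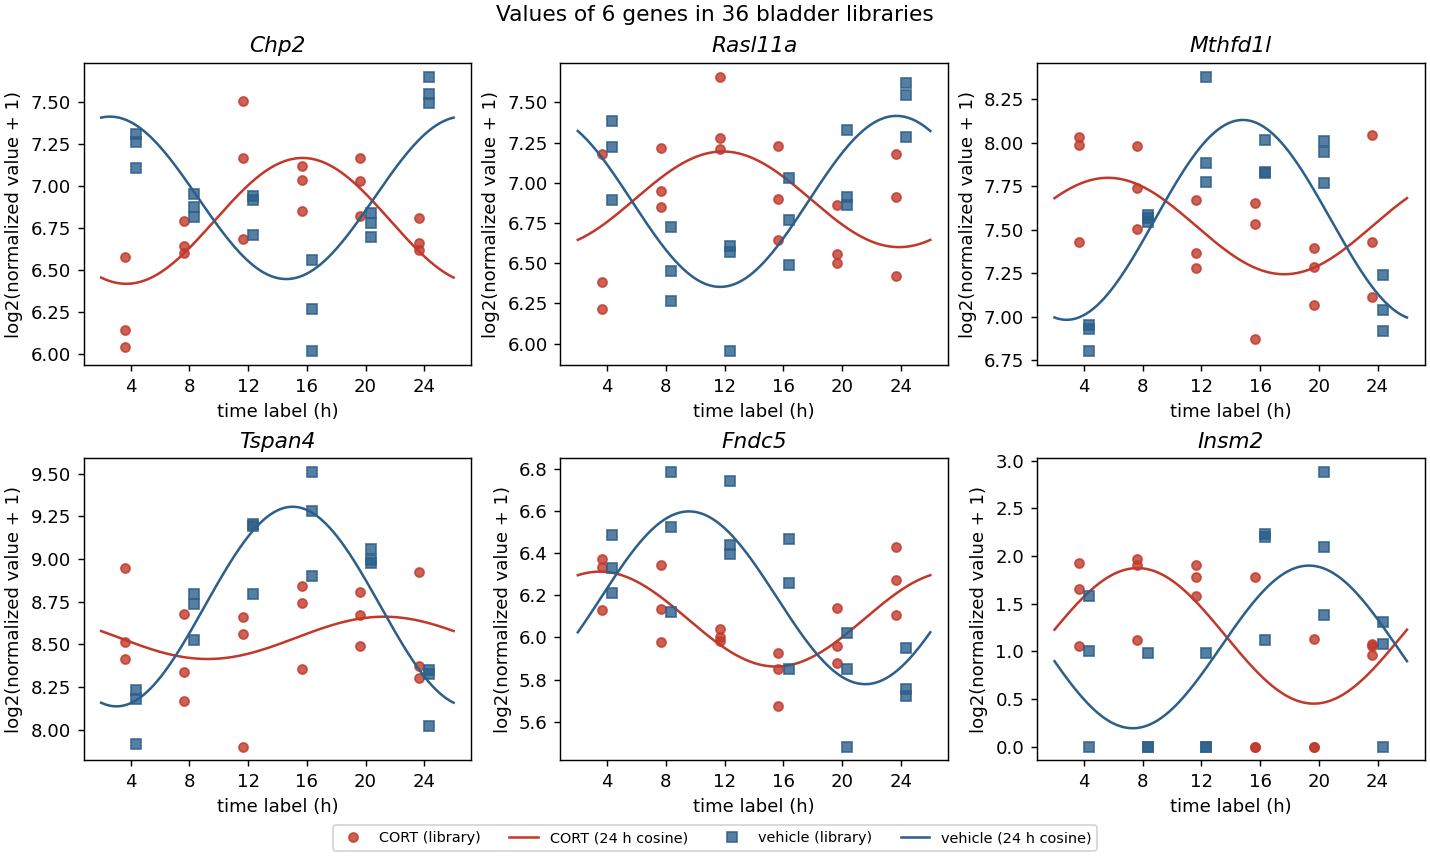
Normalized values of the 6 genes on the log2(value + 1) scale against the time label in h; circles are CORT libraries, squares are vehicle libraries (3 of each per time, set slightly apart), and lines are the fitted 24 h cosines. The CORT and vehicle curves of Chp2, Rasl11a and Insm2 run nearly opposite, 10.9 to 11.8 h apart, and the CORT curve of Tspan4 is the flattest, with an amplitude of 0.12.

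Tspan4 (chromosome 7, 141475240 to 141493427, plus strand) encodes a tetraspanin, a protein with 4 membrane spans known from migrasomes, the vesicles that migrating cells leave behind. Tspan4 at 4 h had normalized values of 365, 493 and 339.5 in CORT libraries, against 300.03, 289 and 240.00 in vehicle libraries. At 8 h Tspan4 was at 322, 409 and 286 in CORT and at 367, 443 and 425 in vehicle. At 12 h its values were 404, 376 and 238 in CORT and 589.8, 442 and 584 in vehicle. The CORT libraries were all above vehicle at 4 h, overlapped at 8 h and were all below vehicle at 12 h. The 16 h libraries held 458, 326 and 427 in CORT and 622, 728 and 477 in vehicle. Values at 20 h were 447, 358 and 407 in CORT, against 509, 533 and 502 in vehicle. At 24 h the CORT libraries gave 484, 315 and 331 and the vehicle libraries 325, 320.2 and 259. CORT remained below vehicle in all libraries at 16 and 20 h and overlapped it at 24 h. What set Tspan4 apart from the other members was less the peak than the amplitude, 0.12 ± 0.09 in CORT and 0.59 ± 0.07 in vehicle (SE, n = 18 each), a difference of -0.46 ± 0.11. The fitted fold from trough to peak was 1.19 in CORT and 2.25 in vehicle. With so flat a CORT curve its peak is poorly placed, at 21.3 h (95% interval 15.4 to 27.1 h, running past 24 h), against 15.04 h in vehicle (14.1 to 16.0 h). The gap of 6.22 h (95% interval 1.07 to 11.4 h) moved to 3.91 h (-3.34 to 11.2 h) without CORT 12 h replicate 3, and ran up to 7.38 h without other single libraries. Tspan4 overlaps Chid1 on the opposite strand; whether the authors' counting used strand is not given in the sources used here, and Chid1 itself had amplitudes of 0.07 in CORT and 0.01 in vehicle (adjusted p of the rhythm difference 1.00, limma).

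Fndc5 (chromosome 4, 129136999 to 129144593, plus strand) encodes the membrane precursor of irisin, a peptide known from skeletal muscle. Fndc5 at 4 h had normalized values of 69.1, 79.8 and 81.9 in CORT libraries, against 79.5, 88.6 and 73.2 in vehicle libraries. At 8 h Fndc5 was at 62, 69.3 and 80.2 in CORT and at 68.6, 91.2 and 109 in vehicle. At 12 h its values were 63.1, 64.8 and 62.3 in CORT and 83.3, 85.9 and 106 in vehicle. The groups overlapped at 4 and 8 h, and every CORT library was below every vehicle library at 12 h. The 16 h libraries held 56.8, 59.9 and 50.1 in CORT and 87.5, 75.5 and 56.8 in vehicle. Values at 20 h were 69.6, 61.2 and 57.9 in CORT, against 63.9, 43.7 and 56.6 in vehicle. At 24 h the CORT libraries gave 85.2, 67.8 and 76.4 and the vehicle libraries 51.7, 53 and 60.8. They overlapped at 16 and 20 h, and at 24 h every CORT library was above every vehicle library. The peak was at 3.50 h in CORT and 9.57 h in vehicle, a CORT minus vehicle difference of -6.07 h (95% interval -8.52 to -3.62 h). Fndc5 had an amplitude of 0.23 ± 0.05 in CORT and 0.41 ± 0.08 in vehicle (SE, n = 18 each), and an adjusted p of 0.0391. Striated muscle markers were present, with summed normalized values of 1106 to 3909 in CORT libraries and 917 to 4666 in vehicle libraries over 8 genes. None of the 7 markers tested differed in rhythm and 1 was higher in CORT on average; their part in the Fndc5 values was not tested.

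Insm2 (chromosome 12, 55599427 to 55602086, plus strand) encodes a zinc finger protein related to INSM1, a transcription factor of neuroendocrine cells. Its mean normalized value was 1.502, so each library rests on a few reads, and it was at 0 in 4 of 18 CORT libraries and 6 of 18 vehicle libraries. Insm2 at 4 h had normalized values of 2.81, 1.08 and 2.14 in CORT libraries, against 0, 2 and 1 in vehicle libraries. At 8 h Insm2 was at 2.92, 1.17 and 2.75 in CORT and at 0, 0 and 0.972 in vehicle. At 12 h its values were 2, 2.75 and 2.44 in CORT and 0, 0.972 and 0 in vehicle. CORT lay above vehicle at 8 and 12 h, and the groups overlapped at 4 h. The 16 h libraries held 0, 2.44 and 0 in CORT and 3.58, 3.69 and 1.17 in vehicle. Values at 20 h were 0, 0 and 1.19 in CORT, against 3.28, 1.61 and 6.36 in vehicle. At 24 h the CORT libraries gave 0.944, 1.11 and 1.08 and the vehicle libraries 1.47, 0 and 1.11. They overlapped again at 16 and 24 h, and CORT lay below vehicle at 20 h. Its peak was at 7.65 h in CORT and 19.3 h in vehicle, a difference of -11.7 h (95% interval -14.6 to -8.73 h). The amplitude was 0.71 ± 0.17 in CORT and 0.85 ± 0.23 in vehicle (SE, n = 18 each), on a scale that understates changes of such low genes.

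Among themselves the members peaked at different times in vehicle bladders: Chp2 at 2.60 h, Fndc5 at 9.57 h, Mthfd1l and Tspan4 at 14.8 and 15.04 h, Insm2 at 19.3 h and Rasl11a at 23.7 h. Within one treatment the limma test of the cosine called 0 of 17921 features in CORT (1055, or 5.89%, at an unadjusted p under 0.05) and 77 of 17945 in vehicle (0.429%). The amplitudes of the 6 members were smaller in CORT, with differences from -0.11 ± 0.12 for Chp2 to -0.46 ± 0.11 for Tspan4 (SE), and for Chp2 and Insm2 the difference was no larger than its SE. The spread between replicates of a group also differed. It was 1.97 times as large in CORT as in vehicle for Mthfd1l and 1.64 times for Chp2, but 0.563 times for Fndc5, against a median of 1.04 over all features tested. The SD between Mthfd1l replicates on the log2 scale was 0.33 in CORT and 0.17 in vehicle.

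**Figure D2:**
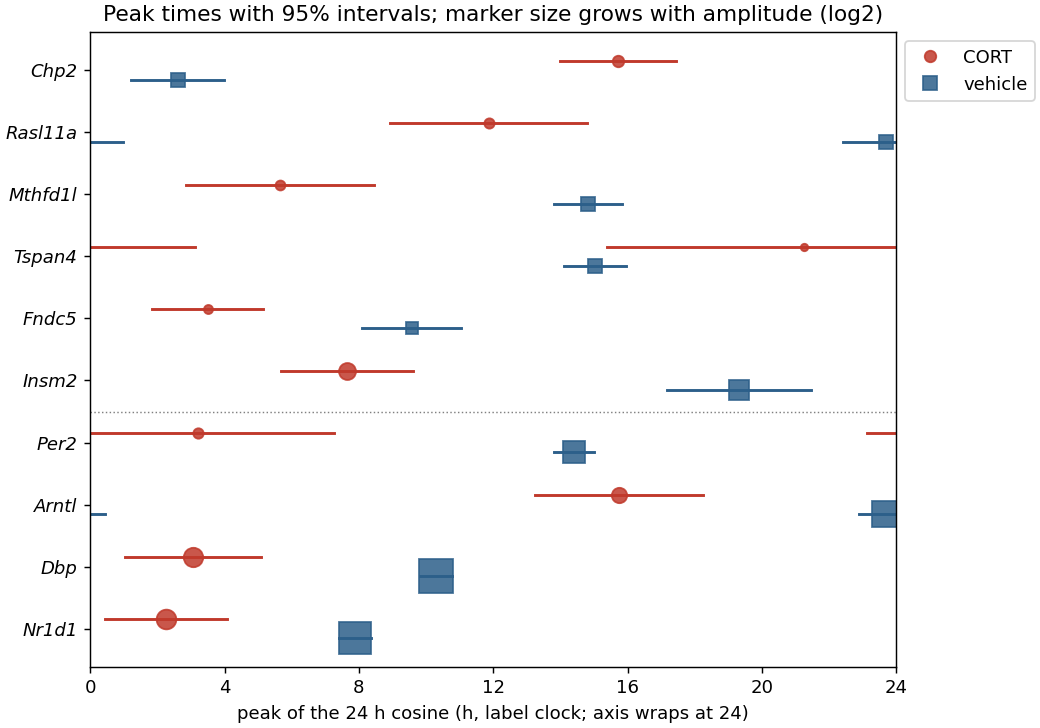
Fitted peak time in h of the 6 genes and, under the dotted line, of 4 clock genes; circles are CORT, squares are vehicle, bars are 95% intervals and marker size grows with the amplitude. The CORT interval of Tspan4 is the widest of the 6 genes, 15.4 to 27.1 h, and the other 5 genes peak 6.07 to 11.8 h apart between the treatments.

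Each replicate number alone, with 1 library per group, gave the same picture for some members and not for others. The gap between the CORT and vehicle peaks of Chp2 was 11.4, 9.75 and 12.0 h in replicates 1, 2 and 3, and that of Rasl11a was 10.4, 10.3 and 11.3 h. The Mthfd1l gap was 8.30, 9.41 and 9.40 h. By the shorter way, the CORT peaks of Rasl11a and Mthfd1l came after the vehicle peak in replicate 1 and before it in replicates 2 and 3. The CORT amplitude of Mthfd1l in replicate 1 was 0.08, against 0.53 and 0.33 in replicates 2 and 3. Insm2 gave 11.5, 5.45 and 9.29 h, with the CORT peak before the vehicle peak in replicate 2 and after it in replicates 1 and 3. Fndc5 gave 11.6, 4.30 and 4.40 h, with the CORT peak first in each. The Tspan4 gap was 4.45 h in replicate 1 and 6.21 h in replicate 3, with the CORT peak after the vehicle peak, and 9.32 h in replicate 2 with the CORT peak before it. The smaller Tspan4 amplitude in CORT was seen in every replicate, at 0.26, 0.23 and 0.31 in CORT and 0.58, 0.57 and 0.62 in vehicle for replicates 1, 2 and 3.

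The level averaged over the 6 times was not used in choosing the members and was tested. Over all features, 734 of 17867 (4.11%) differed, 230 (1.29%) higher and 504 (2.82%) lower in CORT (limma, adjusted p under 0.05), and 0 of the 6 members were among them. On each treatment's own scale the split turned to 2246 higher of 2746 called, still with no member called. Leaving out single libraries moved the 734 to between 408 (without vehicle 12 h replicate 3) and 1282 (without vehicle 12 h replicate 2). Leaving out replicate 2 throughout left 1, leaving out the 8 libraries left 6 and the other naming left 0. The day-average calls given for related genes and cell type markers therefore rest on all 36 libraries with the full-table names. Tspan4 averaged 377 ± 69.8 in CORT and 442 ± 139 in vehicle (SD, n = 18 each), a log2 difference of -0.18 ± 0.08 (SE; adjusted p 0.212). Chp2 averaged 113 ± 27.7 in CORT and 126 ± 36.7 in vehicle, a difference of -0.14 ± 0.06 (adjusted p 0.224, limma). These were the 2 members with an unadjusted p under 0.05, 0.0359 for Tspan4 and 0.0407 for Chp2, where 20.2% of all features had one. Fndc5 differed by -0.10 ± 0.07, Mthfd1l by -0.04 ± 0.09, Rasl11a by 0.01 ± 0.10 and Insm2 by 0.12 ± 0.20 (adjusted p 0.399 to 0.967, limma). The Insm2 estimate ran from 0.02 without CORT 16 h replicate 2 to 0.18 without vehicle 20 h replicate 3. The other naming took Chp2 to -0.30, Insm2 to 0.32 and Tspan4 to 0.01. With the full-table names, the estimates of the 6 members ran from -0.18 to 0.12 on the log2 scale. None was larger than the spread between libraries allowed the test to call.

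**Figure D3:**
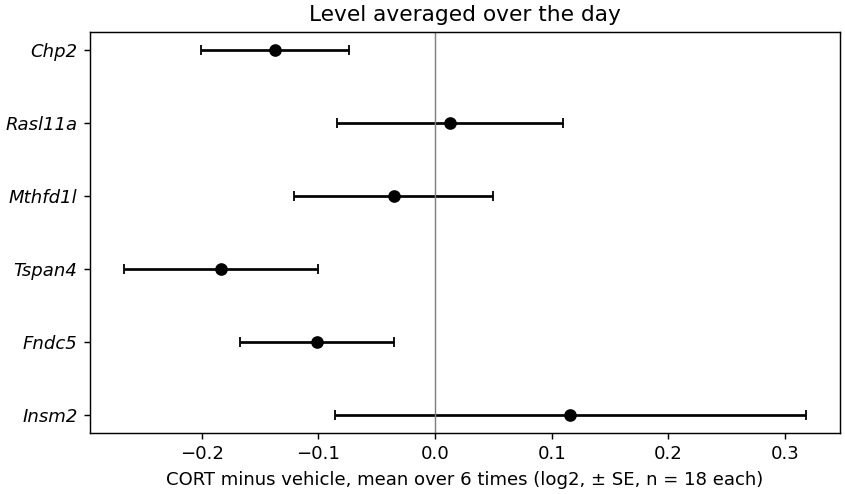
Difference of the level averaged over the 6 times, CORT minus vehicle on the log2(value + 1) scale, for each gene; points are estimates and bars are ± SE (n = 18 libraries each). Estimates run from -0.18 for Tspan4 to 0.12 for Insm2, and none passed the adjusted threshold.

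Genes whose values moved most like each member were ranked by Pearson's r over the 36 libraries, each treatment centred on its own mean, among features with a mean value of at least 20. These coefficients describe libraries that share time labels and treatment. For Mthfd1l the closest were the clock genes Per2 (r = 0.894) and Cry2 (0.798), which encode repressors of the clock loop, and Wee1 (0.724). Per2 was also the closest to Tspan4 (0.781), followed by Cys1 (0.755) and Coq10b (0.731). Rasl11a moved most like Arntl (0.803), an activator of the loop, Npas2 (0.697) and Leo1 (0.639). The closest to Fndc5 were the clock output gene Dbp (0.727) and the nuclear receptor genes Nr1d1 (0.692) and Nr1d2 (0.679). Chp2 was closest to St8sia4 (0.773), C130074G19Rik (0.714) and Ccr2 (0.702), the last a chemokine receptor of monocytes, and no clock gene was among them. Insm2 reached no more than 0.531 with Usp39, 0.530 with Mb21d1 and 0.528 with Mettl1.

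Those clock genes had moved peaks of their own in CORT: Per2 peaked at 3.20 h in CORT and 14.4 h in vehicle, and Arntl at 15.7 h in CORT and 23.7 h in vehicle. Dbp peaked at 3.07 h in CORT and 10.3 h in vehicle, and Nr1d1 at 2.25 h in CORT and 7.88 h in vehicle. Set beside them, Mthfd1l peaked 2.45 h from Per2 in CORT and 0.418 h from it in vehicle, and Fndc5 peaked 0.430 h from Dbp in CORT and 0.720 h from it in vehicle. Rasl11a shared its vehicle peak with Arntl, 23.7 h for both. In CORT, Rasl11a peaked at 11.9 h (interval 8.94 to 14.8 h) and Arntl at 15.7 h (13.2 to 18.2 h). Tspan4 peaked 5.95 h from Per2 in CORT and 0.630 h from it in vehicle. The CORT peak intervals were 15.4 to 27.1 h for Tspan4 and -0.87 to 7.27 h for Per2. Read round the day, the CORT intervals overlapped for both pairs, and no rhythm of these genes was called within CORT. Whether either member parts from its clock gene in CORT was not tested.

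Because Ccr2 stood close to Chp2, leukocyte markers were set beside it. Summed normalized values of 5 markers ran from 734 to 1120 in CORT libraries and from 720 to 1314 in vehicle libraries. At 24 h, where Chp2 was highest in vehicle, the sums were 765 to 915 in CORT and 1064 to 1243 in vehicle. At 8 h, where Chp2 also lay below vehicle in every CORT library, the sums did too, at 780.4 to 829 in CORT and 864 to 1314 in vehicle. At 4 h, where the same held for Chp2, they overlapped, with 916 to 1051 in CORT and 953 to 1037 in vehicle. At 16 h, where Chp2 was above vehicle in every CORT library, the sums also overlapped, with 734 to 914 in CORT and 759 to 995 in vehicle. Lower sums were not particular to leukocytes. Endothelial marker sums lay below vehicle in every CORT library at each time but 16 h, for example 1989 to 2982 in CORT and 3783 to 5034 in vehicle at 24 h. None of the 5 leukocyte markers differed in rhythm or in day average. Cx3cr1, the myeloid receptor gene named above and not among these markers, was called for its rhythm (adjusted p 0.0432, limma). It peaked at 17.2 h in CORT and 2.58 h in vehicle, near the Chp2 peaks of 15.7 and 2.60 h. Its amplitude was 0.73 in CORT and 0.27 in vehicle. Ccr2 peaked at 16.4 h in CORT and 1.75 h in vehicle, with no called rhythm difference (adjusted p 0.339, limma). The part of leukocytes in the Chp2 values was not tested.

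The clock genes also give each library a time of its own. The 19 clock genes of a library were compared with their vehicle cosines, and the time at which they fitted best was taken as its clock time. Of the 18 CORT libraries 3 fell within 2 h of their label and 10 were more than 6 h away. Among vehicle libraries 18 of 18 fell within 2 h. For each of these the curves were made from the vehicle libraries of the other time labels. The 3 CORT libraries labelled 12 h stood at 20.9, 22.0 and 0.596 h, and those labelled 24 h at 11.8, 3.73 and 4.08 h. The clock genes' swing relative to vehicle was also smaller, at a median 0.516 among CORT libraries and 0.902 among vehicle libraries, and the lowest in CORT was 0.114, where the clock time is poorly set.

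Read at these clock times instead of the labels, CORT values of each member lay nearer to its vehicle curve, by the root mean square deviation on the log2 scale. Mthfd1l deviated by 0.25 at the clock time and 0.63 at the label, with 15 of 18 CORT libraries nearer. Fndc5 deviated by 0.22 at the clock time and 0.35 at the label, with 13 libraries nearer, and Chp2 by 0.37 at the clock time and 0.64 at the label, also with 13. For Rasl11a the values were 0.36 at the clock time and 0.66 at the label, and for Tspan4 0.37 at the clock time and 0.50 at the label, with 10 libraries nearer for each. With 8 clock genes in place of 19, Tspan4 deviated by 0.38 at the clock time, with only 8 of 18 libraries nearer. Insm2 deviated by 1.05 at the clock time and 1.21 at the label. The members had been chosen for leaving the vehicle curve at the label, so a smaller deviation at any other time is partly set by that choice. The deviation of CORT libraries from their own mean gives a scale for these values. It was 0.34 for Mthfd1l, above the 0.25 at the clock time, and 0.37 for Rasl11a, close to the 0.36 at the clock time (0.39 with 8 clock genes in place of 19). For Chp2, Fndc5, Insm2 and Tspan4 it was 0.35, 0.20, 0.71 and 0.27, below their deviation from the vehicle curve at the clock time.

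The members also differed in which time ordered their CORT values better. A 24 h cosine on the clock time took up 75.7% of the variance of Mthfd1l in CORT libraries and one on the label 34.1%, and for Tspan4 the shares were 24.6% on the clock time and 10.7% on the label. For Rasl11a they were close, 34.1% on the clock time and 31.9% on the label. Chp2 had 42.8% on the clock time and 58.5% on the label, Fndc5 47.5% on the clock time and 64.5% on the label, and Insm2 12.3% on the clock time and 50.5% on the label. On the clock time the CORT peaks of Mthfd1l, Fndc5, Tspan4 and Rasl11a stood at 13.3, 10.3, 16.2 and 23.7 h, against vehicle peaks of 14.96, 9.83, 15.1 and 0.151 h. Chp2 peaked at 23.2 h in CORT and 2.88 h in vehicle on this scale, and Insm2 at 8.03 h in CORT and 19.4 h in vehicle. The distance between the treatments on the clock time was therefore 0.424 to 1.65 h for Mthfd1l, Fndc5, Tspan4 and Rasl11a. It was 3.68 h for Chp2 and 11.3 h for Insm2, and no interval was computed for these distances. Amplitudes on the clock time stayed smaller in CORT for each gene. For Mthfd1l, Fndc5, Tspan4 and Rasl11a they were 0.41, 0.19, 0.20 and 0.30 in CORT. In vehicle the same genes had 0.64, 0.39, 0.63 and 0.55.

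**Figure D4:**
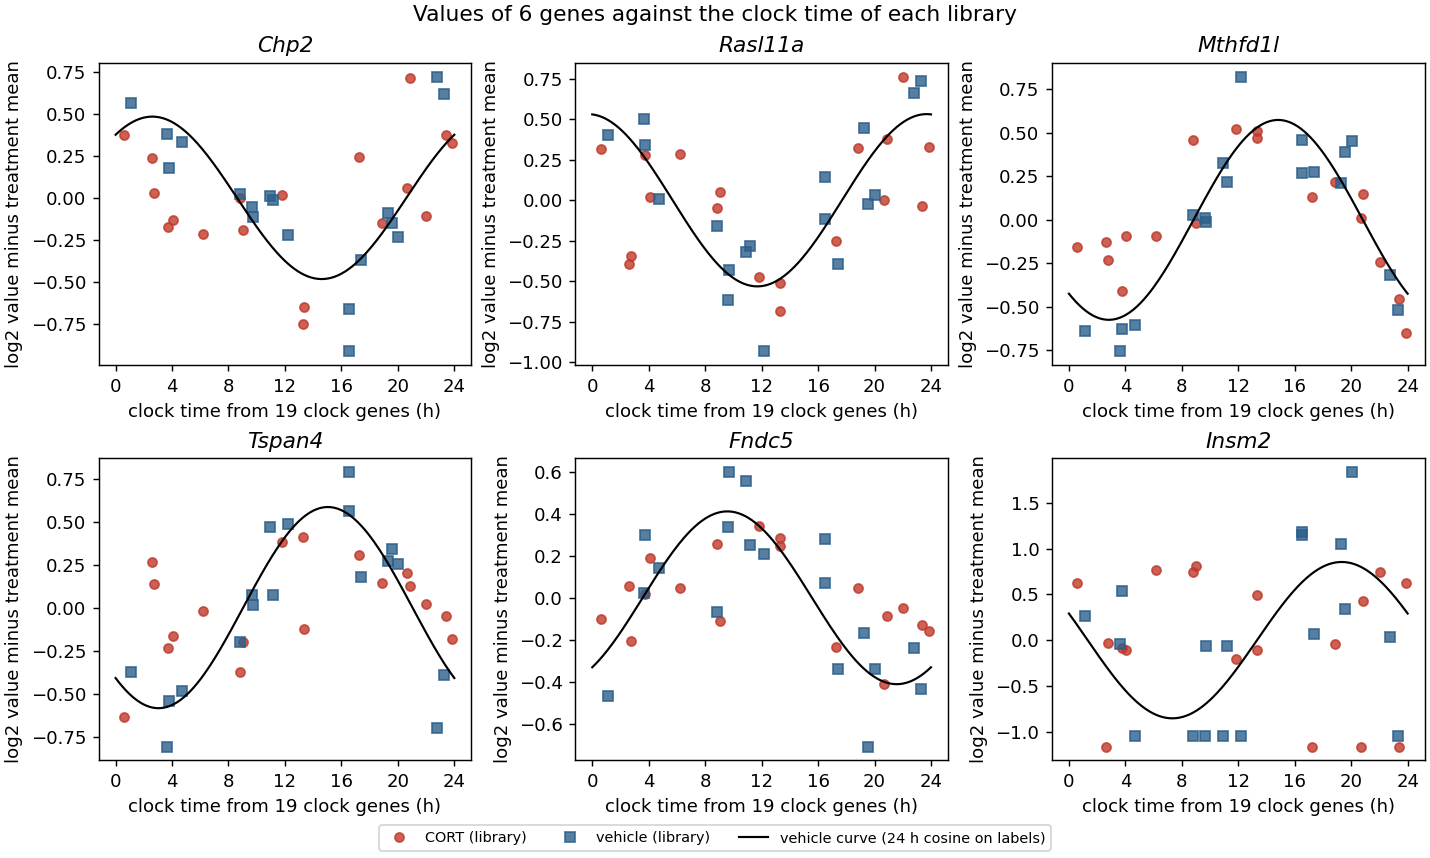
Log2(value + 1) of the 6 genes minus the treatment mean, against the clock time in h fitted to each library from 19 clock genes; circles are CORT libraries, squares are vehicle libraries and the line is the vehicle cosine fitted on the labels. Mthfd1l in CORT lies along the vehicle line, with a deviation of 0.25, and Insm2 in CORT does not, with 1.05.

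Few related genes were called by any test. Beside the day-average calls that follow, 2.82% of all features were lower and 1.29% higher in CORT. They are calls of single genes, and no set test of the lists was run. Among 16 other folate one-carbon enzymes, all tested, 0 differed in rhythm and 1 fell in its day average: Aldh1l2, the mitochondrial 10-formyltetrahydrofolate dehydrogenase, at 34.98 ± 10.7 in CORT and 59.5 ± 19.5 in vehicle (SD, n = 18 each; log2 difference -0.74, adjusted p 0.000103, limma). The median day-average difference of the list was 0.05 on the log2 scale, beside 0.02 over all features. Of the other calcineurin B homologous and sodium-proton exchange genes, 14 of 15 were tested and 1 fell, Tesc, a calcineurin B homologous protein like Chp2 (8.25 in CORT and 11.05 in vehicle; log2 difference -0.37, adjusted p 0.0383, limma). None of the 14 differed in rhythm, and the median difference of their day averages was 0.02.

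Tetraspanins other than Tspan4 gave no call in any test, with 27 of 29 tested. The smallest unadjusted p of the rhythm difference were 0.0271 for Tspan33 and 0.0331 for Tspan11 (adjusted p 1.00 each, limma), and the median distance between the treatments' fitted cosine and sine terms was 0.08 on the log2 scale, beside 0.12 over all features. In the list of RAS-like small GTPases, which also holds Ubtf (not a GTPase gene), 15 of 16 genes were tested. Diras2 was the one with a called rhythm in vehicle, the treatment in which 0.429% of all features were called (adjusted p 0.00607, limma); its amplitude was 0.48 in CORT and 0.96 in vehicle, with peaks at 1.98 h in CORT and 5.69 h in vehicle. Its rhythm difference was not called (adjusted p 0.450), nor was that of Rasl10a (0.339).

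In the list of fibronectin type III genes related to Fndc5 and of PGC-1alpha partners, 11 of 14 were tested. Of these, 2 fell in their day average, where 2.82% of all features did. Fndc1 averaged 1565 ± 310 in CORT and 2295 ± 469 in vehicle (SD, n = 18 each; log2 difference -0.55, adjusted p 0.00168, limma), and Fndc3b differed by -0.15 (adjusted p 0.0200). Of the INSM and neuroendocrine genes 10 of 12 were tested and 0 were called. Chgb, a granule protein gene as low as Insm2 at 1.57 in CORT and 1.602 in vehicle, had the smallest unadjusted p of the rhythm difference, 0.00645 (adjusted p 0.687, limma), and Scg2 followed at 0.0222. Across the 6 lists 0 of 93 tested genes other than the members differed in rhythm between the treatments. With 0.106% of all features called, a count of 0 is what the background gives.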

How the data were processed

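The build was mm10, per the submitters' processing notes. Which aligner and counter were run is not given in the sources used here. Per the labels' protocols, ribosomal RNA was depleted and the library kit keeps strand. The authors deposited a linear signal per gene in 6 full tables, 3 per treatment and each with the 12 libraries of 2 replicate numbers. In each table all libraries hold the same sorted values, in steps of a twelfth, so these are read counts quantile normalized over 12 libraries, and the totals of single libraries are lost. Another 4 deposited tables hold log2 values of genes the authors selected; they were used only to check library names. No deposited column used belongs to a sample outside the series.

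A scale common to all 36 libraries was rebuilt from the sorted values and each library's ranks. Tests used log2(value + 1) in limma 3.58.1 (R 4.3.3) with Benjamini-Hochberg adjustment; features at the lowest value in over 50% of libraries were left out. The rhythm difference was an F test of the treatment by cosine and treatment by sine terms (24 h), and the day average a contrast of 12 group means. Both were also run on simulated data, with a rhythm in vehicle alone or a shifted mean, and independent noise. A peak that moves between the treatments was not simulated. The members and lists were chosen with earlier results of these data known. Text names the members, list genes that were called or, with none called, the 2 with the smallest p, the 3 features most like each member, and the features next to the threshold. Alternatives changed the pseudocount, filter, variance prior, weights, scale, replicates and naming.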

Additional observations from a re-analysis of the deposited data

Results flagged for a closer look

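The treatments differed in the 24 h rhythm of each of the 6 genes by the interaction test over 36 libraries, the test by which they were chosen, so the gaps are values and carry no independent support. The hours between the CORT and vehicle peaks were 10.89 for Chp2, 9.177 for Mthfd1l, 11.82 for Rasl11a, 6.074 for Fndc5, 11.68 for Insm2 and 6.216 for Tspan4. Leaving out single libraries gave 10.3 to 11.2 h for Chp2, 8.26 to 9.94 h for Mthfd1l, 11.2 to 12.0 h for Rasl11a, 5.68 to 6.44 h for Fndc5, 11.2 to 12.0 h for Insm2 and 3.91 to 7.38 h for Tspan4, lowest without CORT 12 h replicate 3. A gap close to 12 h has no direction, since an advance and a delay are then equal.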

How the results depend on the processing

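The members' day averages stayed uncalled in 299 of 299 tests under the alternatives. With 19 features called for a rhythm difference, replicate 1, 2 or 3 alone gave 0 each, the data without the 8 libraries named otherwise gave 10 and the other naming gave 0 (443 at an unadjusted p under 0.05, limma); replicates 1 and 2 alone were chosen after seeing the data. Leaving out a replicate number or a single library gave 1 to 23, and leaving out single libraries alone 13 to 23. With 734 features called for the day average, the replicate block gave 1240 (537 higher in CORT), array weights 3145 (1666 higher), each treatment's own scale 2746, no 8 libraries 6 and the other naming 0 (1434 at an unadjusted p under 0.05). Leaving out libraries gave 1 to 1282, the highest without vehicle 12 h replicate 2; without vehicle 16 h replicate 3 it was 1226 and without CORT 24 h replicate 1 it was 1192. It was 408, 437 and 455 without vehicle 12 h, CORT 12 h or vehicle 8 h replicate 3, and leaving out one of vehicle 20 h replicate 3, CORT 8 h replicate 1 and the second replicates of CORT 16 h, CORT 24 h and vehicle 16 h gave 476 to 489. With 0 rhythmic in CORT (1055 at an unadjusted p under 0.05, limma), the replicate block, a minimum mean of 10 and an intensity trend gave 1 each, pseudocount 5 and array weights 2 each, and leaving out a replicate number 0 to 1. With 77 features rhythmic in vehicle, a minimum mean of 10 gave 146, an intensity trend 160, array weights 146, no 8 libraries 17 and leaving out a replicate number 4 to 19.

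The log2 day averages changed sign for members near 0. For Mthfd1l the difference was 0.0301 on each treatment's own scale, 0.0034 without the 8 libraries, 0.17 with the other naming and -0.0784 to 0.0293 with libraries left out. For Rasl11a it was -0.0584 without the 8 libraries, -0.0383 with the other naming and -0.0795 to 0.0793 with libraries left out, and for Tspan4 0.0085 with the other naming. Without sign change, Chp2 ran from -0.302 (other naming) to -0.0779 (without replicate 3), Fndc5 from -0.144 to -0.067 and Insm2 from 0.00176 (array weights) to 0.319 (other naming). The cause was not tested.

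The labels tie no replicate number to an animal or batch, and not every same-numbered pair deviated together: over 198 such pairs the correlation of deviations ran from -0.345 to 0.354 with a median of 0.041, and 62 were over 0.1. Over 396 differently numbered pairs of other groups the median was -0.023 and 32 were over 0.1. The deviations were from the mean of each group's 3 libraries, which ties these values to those of same-numbered pairs. They are therefore no separate baseline, and that same-numbered libraries were more alike is only a hint from the data. With the replicate block 17 features differed in rhythm, 16 of them among the 19, and Fndc5 and Insm2 lost their calls (adjusted p 0.0553 each, limma). Single-library depth is lost in the normalized values, and Insm2 was left out by a minimum mean of 10.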
